A study of Arabidopsis thaliana with 40 samples.

Results

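The comparison described here asks what is added to seedlings that already carry a mutation in *UBP12* when *UBP13* is mutated too. It sets the 3 RNA-seq libraries of the double mutant *ubp12-1 ubp13-3* (*ubp12/13*) against the 3 libraries of the single mutant *ubp12-1* (*ubp12*), 6 of the 12 RNA libraries and of the 40 samples of the series. All 6 libraries carry the T-DNA allele *ubp12-1* in the Col-0 background, and the *ubp12/13* seedlings also carry the T-DNA allele *ubp13-3*. Whole seedlings were grown for 15 days on MS agar under long days and were collected 6 to 8 h after the lights went on. The replicates are separate biological samples according to the methods. Libraries of *ubp13* and of wt (Col-0), 3 of each, entered only the test of whether *ubp13-3* has the same effect in both backgrounds. Each genotype is as labelled, and its limits as a model come from the methods: *ubp13-3* is a weak allele, and the *ubp12/13* plants are stunted and sterile, so that they had to be picked out of families that segregate *ubp13-3*, by genotype and appearance. A difference in RNA between the genotypes therefore cannot be told apart from a difference in size, developmental stage or share of organs. In RNA from whole seedlings, fewer cells of a type and less RNA per cell cannot be told apart either.

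UBP12 and UBP13 are closely related ubiquitin-specific proteases of *Arabidopsis* that take ubiquitin off other proteins. A histone is among their substrates: Polycomb repressive complex 1 (PRC1) attaches a single ubiquitin to histone H2A (H2Aub1), and UBP12 and UBP13 remove it. A second Polycomb complex, PRC2, methylates histone H3 (H3K27me3) at many of the same genes. UBP12 and UBP13 are also known for roles outside chromatin, in jasmonate signalling, where they stabilise the transcription factor MYC2, in the circadian clock and flowering time, and in the root meristem, where they protect a peptide hormone receptor from degradation.

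Between 12145023 and 15225396 counts fell on nuclear genes in the *ubp12/13* libraries and between 6822401 and 9109250 in the *ubp12* libraries, so that the depths of the genotypes do not overlap. The 10 most abundant transcripts made up 9.98% to 10.6% of a library in *ubp12/13* and 12.8% to 14.4% in *ubp12*. Chloroplast and mitochondrial genes, which were left out, held 0.268% to 0.581% of all counts in *ubp12/13* and 0.501% to 1.52% in *ubp12*. The label whole seedlings was checked against organ markers. Of 15 root markers, 4 had no read in any of the 6 libraries, and the root hair genes *EXPA7* and *EXPA18* were among these. Levels are in CPM, the count of a gene as a share of its library after scaling. The summed level of the list was 53.1, 59.8 and 55.3 CPM in *ubp12/13*, against 47.4, 44.2 and 49.7 CPM in *ubp12*, nearly all of it from *SCR* and *SHR*, which shoots express as well. Markers of root hairs and of the root tip were thus at or near 0 in both genotypes, so these markers did not bear out the root part of the label. The part of roots in the results was not tested. Of the 9 seed storage and oleosin genes listed, none passed the filter on low counts.

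*UBP12* (chromosome 5, 2019084 to 2028116, minus strand, TAIR10 coordinates) had 33.8, 26.99 and 36.2 CPM in *ubp12/13*, against 26.1, 23.3 and 27.6 CPM in *ubp12*. The ranges overlapped, and the log2 fold change (log2FC) of 0.33 ± 0.13 (SE) did not pass the test (adjusted p = 0.094, edgeR quasi-likelihood test with Benjamini-Hochberg adjustment). Both genotypes lay far below the 88.3 to 94.3 CPM of *ubp13* and the 96.3 to 102 CPM of wt, as the *ubp12-1* label has it. *UBP13* (chromosome 3, 3760724 to 3770563, minus strand) had 77.8, 77.9 and 80.7 CPM in *ubp12/13*, against 59.2, 64.2 and 62.6 CPM in *ubp12*. Its reads were thus higher in every *ubp12/13* library (log2FC 0.34 ± 0.07, adjusted p = 0.0097). The same allele went with a larger difference in the other background, 149, 171 and 153 CPM in *ubp13* against 62.4, 63.4 and 63.9 CPM in wt. The effect of the allele on its own gene was smaller in the *ubp12* background than in the wt background by 0.97 ± 0.11 on the log2 scale (adjusted p = 1.2e-04). A count is a single number per gene, so reads before and after the insertion cannot be told apart, and the *ubp13-3* label could not be checked with it. The pair of genotyping primers that the study lists for the wt allele at the *ubp13-3* site is shown because it places that site in the gene.
ubp13-3 fw: gttccagtaagcccatgg
ubp13-3 rev: agatgatctactccacgg
The forward primer matched the minus strand of chromosome 3 at 3764736 to 3764753, inside the coding exon at 3764671 to 3764779, and the reverse primer matched the plus strand at 3763762 to 3763779, inside the coding exon at 3763734 to 3763911. Each had 1 exact match in the genome. They lie 59.1% and 69.0% of the way along the gene from its start.

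**Figure D1:**
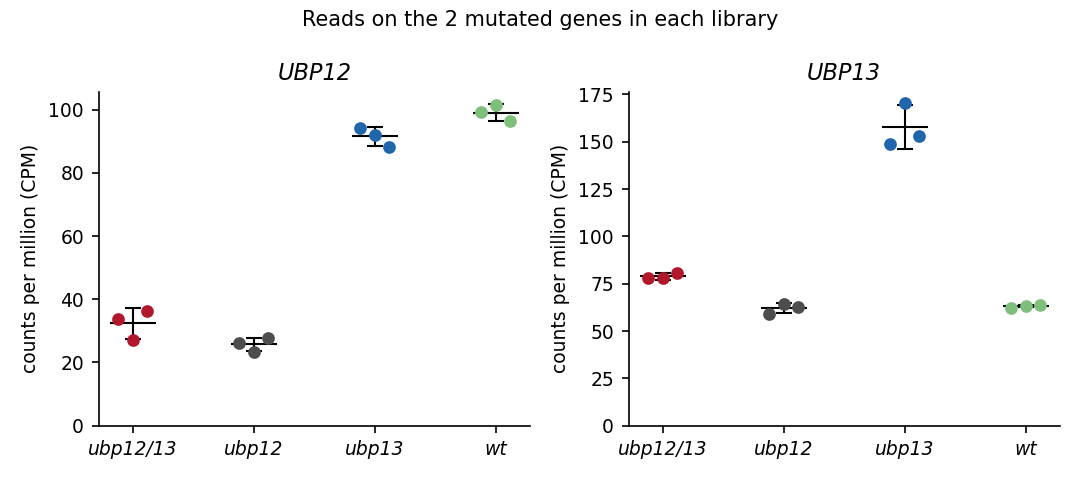
CPM of *UBP12* (left) and *UBP13* (right) in each library of *ubp12/13*, *ubp12*, *ubp13* and wt, with the mean (long line) and SD (bars) of the 3 libraries. *UBP12* reads are low in both genotypes that carry *ubp12-1*, and *UBP13* reads are highest in *ubp13*, at 149 to 171 CPM.

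Of 17890 nuclear genes tested, 733 were higher in *ubp12/13* than in *ubp12* (4.10%) and 540 were lower (3.02%), at an adjusted p under 0.05 and a log2FC of at least 1 in size. Rose and fell are used in what follows of genes that passed both thresholds. Without the fold minimum, 2332 genes were higher (13.0%) and 2418 lower (13.5%). In 723 of the genes that rose and 528 of those that fell, the libraries of the 2 genotypes did not overlap, against 21.7% of all genes tested with every *ubp12/13* library above and 21.5% with every one below the *ubp12* libraries. The median log2FC was 1.53 among the genes that rose (quartiles 1.25 and 2.17) and -1.42 among those that fell (quartiles -1.85 and -1.16). A log2FC of at least 3 was reached by 78 genes upward and 44 downward. Scaling by library totals in place of TMM moved the median of all genes by 0.16 on the log2 scale and the share of higher genes among the calls to 72.2%, against 57.6% with TMM, so the balance of directions rests on the scaling. With all libraries thinned to the smallest, 713 genes were higher and 523 lower. Of the genes that rose, 711 code for proteins and 19 are pseudogenes, and of those that fell, 516 and 14.

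**Figure D2:**
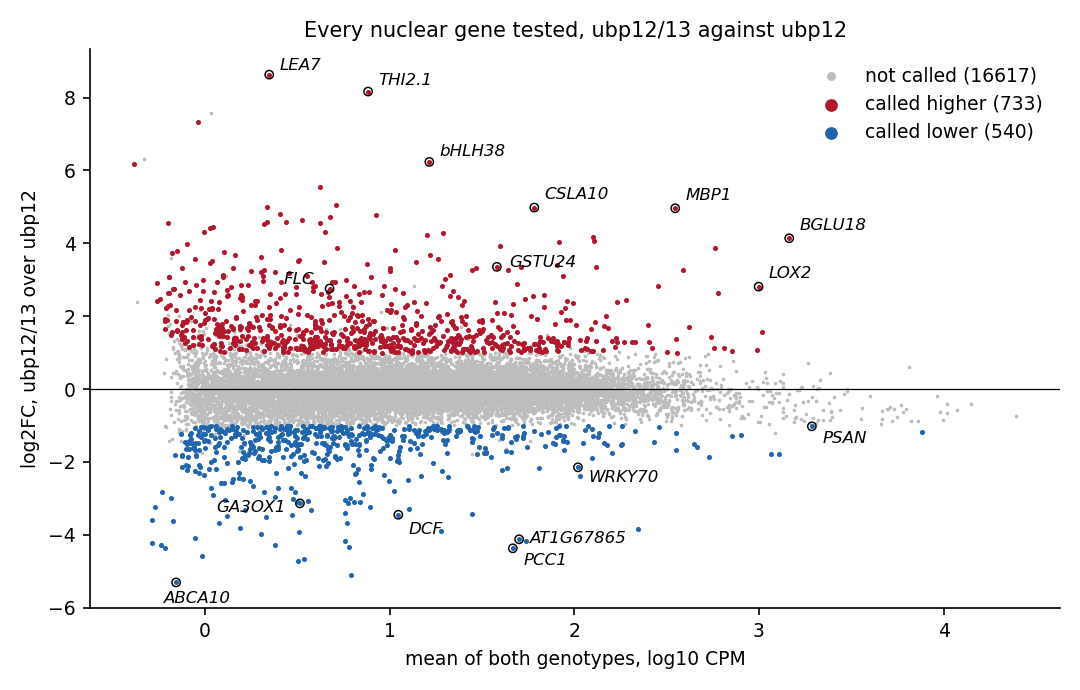
Log2FC of *ubp12/13* over *ubp12* against the mean level of both genotypes (log10 CPM) for each of the 17890 nuclear genes tested, with the 733 that rose in red, the 540 that fell in blue and genes of the text circled. Fitted values of *LEA7* and *THI2.1*, which have almost no reads in *ubp12*, rest on a prior count and are no measured folds.

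The smallest p values among genes that rose were those of *MBP1*, *BGLU18* and *GSTU24*. *MBP1*, a myrosinase-binding protein of the system that splits glucosinolates in damaged tissue, had 660, 638 and 749 CPM in *ubp12/13*, against 22.2, 22.4 and 20.6 CPM in *ubp12*. It was 31.2-fold higher (log2FC 4.96 ± 0.10, adjusted p = 1.7e-07) and had the smallest p of all genes. *BGLU18*, a beta-glucosidase of the ER bodies of wounded leaves, had 2602, 2518 and 3166 CPM in *ubp12/13*, against 158, 154 and 156 CPM in *ubp12* (17.6-fold, log2FC 4.14 ± 0.11, adjusted p = 7.4e-07). *GSTU24*, a glutathione S-transferase that detoxifies foreign compounds, had 72.3, 67.4 and 68.2 CPM in *ubp12/13* and 6.92, 5.83 and 7.59 CPM in *ubp12* (10.2-fold, log2FC 3.35 ± 0.11). In each of these 3 genes the replicates of a genotype lay close together beside the distance between genotypes, which a choice by smallest p favours. *TSA1*, another ER body protein and neighbour of *BGLU18*, was looked up after the values were seen. Its level was 232, 225 and 264 CPM in *ubp12/13*, against 24.8, 19.5 and 25.7 CPM in *ubp12*.

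*CSLA10*, a cellulose synthase-like protein of the glucomannan synthase family, had 110, 99.6 and 144 CPM in *ubp12/13*, against 2.79, 4.55 and 3.80 CPM in *ubp12* (31.6-fold, log2FC 4.98 ± 0.21). Its relative *CSLA01* had 362 reads over the *ubp12/13* libraries and 4 over the *ubp12* libraries, a ratio of 50.2 with a 95% counting interval of 19.4 to 185.2. *EARLI1*, a secreted proline-rich lipid transfer-like protein, had 32.6, 39.1 and 19.6 CPM in *ubp12/13* and 1.56, 2.33 and 0.759 CPM in *ubp12* (18.8-fold, adjusted p = 1.6e-04). The uncharacterised gene AT1G21520 had 32.2, 47.0 and 31.2 CPM in *ubp12/13* and 2.23, 1.75 and 1.52 CPM in *ubp12* (19.6-fold). Both copies of *AT14A*, AT3G28290 and AT3G28300, rose, by 18.0-fold and 16.8-fold. They are so alike that reads matching both could have been dropped by the study's filter on mapping quality. All of these genes had every *ubp12/13* library above every *ubp12* library, which the rule that named them required, so it is no further support.

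A pair of neighbouring genes of the iron response was among the largest increases. *bHLH38*, a transcription factor that is switched on when iron runs short, had 5.96, 52.0 and 38.7 CPM in *ubp12/13*, against 0, 0 and 1.52 CPM in *ubp12* (log2FC 6.24 ± 1.17, adjusted p = 0.0059). Its neighbour and close relative *bHLH39* had 4.98, 24.7 and 18.9 CPM in *ubp12/13* and 0.112, 0 and 1.97 CPM in *ubp12* (log2FC 4.77 ± 0.92, adjusted p = 0.0067). In both genes the first *ubp12/13* library was the lowest of its genotype, and the spread over replicates was wide. Leaving out the third *ubp12* library, which holds all *ubp12* reads of *bHLH38*, moved its log2FC to 11.6. With no *ubp12* read left, that value rests on a prior count and is no measured fold. Leaving out the first *ubp12* library moved the log2FC of *bHLH38* to 5.58. *FRO6*, a ferric reductase of green tissue chosen after its values were seen, fell to 232, 233 and 227 CPM in *ubp12/13*, against 764, 661 and 657 CPM in *ubp12*.

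Among the 8 genes with the largest fitted increase, several had no or almost no reads in *ubp12*. *THI2.1*, an antimicrobial thionin, had 18.0, 12.2 and 15.4 CPM in *ubp12/13*, against 0, 0 and 0.152 CPM in *ubp12*, that is 650 reads against 1 (adjusted p = 3.1e-05). AT5G18840, a major facilitator transporter, had 192 reads in *ubp12/13* and 3 in *ubp12*, a ratio of 35.5 (95% counting interval 12.0 to 173.6). AT3G02480, a late embryogenesis abundant (LEA) protein, had 2.34, 11.1 and 16.4 CPM in *ubp12/13* and 0.447, 0.117 and 0.304 CPM in *ubp12*. The remaining 3 had no read in any *ubp12* library, and their folds are lower bounds against a floor of 3 counts in each *ubp12* library. *LEA7*, which shields cells during drying, was at least 11.7-fold higher (1.21, 2.76 and 9.37 CPM in *ubp12/13*), the uncharacterised AT4G12735 at least 4.79-fold, and AT5G57010, a calmodulin-binding protein, at least 2.18-fold. Each of these 3 missed the threshold when any 1 of the *ubp12* libraries was left out, with adjusted p values of 0.058 to 0.080.

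The promoter of *MBP1* is shown because this gene had the smallest p and holds a G-box, CACGTG, the site bound by MYC2 and other bHLH and bZIP factors. The 250 bases before the annotated gene start (TAIR10.1 annotation and sequence of RefSeq) are printed 5′ to 3′ along the gene, with the G-box in capitals.
MBP1, chr1:19352792-19353041, minus strand: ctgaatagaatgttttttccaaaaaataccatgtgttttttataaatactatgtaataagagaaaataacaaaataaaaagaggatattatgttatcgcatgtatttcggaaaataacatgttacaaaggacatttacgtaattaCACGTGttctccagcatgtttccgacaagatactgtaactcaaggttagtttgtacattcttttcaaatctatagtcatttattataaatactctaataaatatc
The motif starts 105 bases before the gene start. A G-box in this window was found in 98 of 711 promoters of genes that rose (13.8%), in 33 of 516 of genes that fell (6.40%), and in 7.52% of all genes tested. Such matches describe letters in a window, and no binding was measured.

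Jasmonate is the lipid hormone of wounding. It is made in the chloroplast from linolenic acid by lipoxygenases (LOX), allene oxide synthase (AOS) and allene oxide cyclases (AOC), and is finished in the peroxisome by the reductase OPR3 and beta-oxidation. Of 36 genes of its synthesis, signalling and response, 32 were tested, 16 of these rose and 0 fell, and 23 were higher by adjusted p alone. Over all genes tested, 4.10% rose, 3.02% fell and 13.0% were higher by adjusted p alone. The median log2FC of the list was 1.179, against -0.00085 over all genes tested. In 24 of the 32, every *ubp12/13* library lay above every *ubp12* library, against 21.7% of all genes tested. Summed over the list, the level was 4895, 4523 and 5698 CPM in *ubp12/13*, against 1579, 1296 and 1752 CPM in *ubp12*.

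Synthesis carried most of it, with 8 of 12 genes higher. *LOX2*, the main lipoxygenase of leaf jasmonate, had 1781, 1606 and 1846 CPM in *ubp12/13*, against 263, 233 and 246 CPM in *ubp12* (7.02-fold, log2FC 2.81 ± 0.09, adjusted p = 1.9e-06). *AOC1* had 146, 124 and 198 CPM in *ubp12/13*, against 19.0, 15.2 and 20.2 CPM in *ubp12* (8.61-fold, log2FC 3.11 ± 0.19). *AOS*, the step between them, had 523, 461 and 564 CPM in *ubp12/13*, against 192, 192 and 209 CPM in *ubp12* (2.60-fold, log2FC 1.38 ± 0.09). The genes of the lipoxygenases *LOX3* and *LOX4* and of *OPR3* rose by 3.71-fold, 5.91-fold and 4.80-fold with a wider spread, *LOX4* having 117, 39.3 and 150 CPM in *ubp12/13* and 17.6, 9.33 and 25.4 CPM in *ubp12*. *AOC2* and *AOC3*, which lie beside *AOC1* on chromosome 3, rose by 3.36-fold and 4.09-fold. The fourth cyclase gene, *AOC4*, lies elsewhere and had 15.0, 18.4 and 18.3 CPM in *ubp12/13* and 19.6, 18.2 and 17.6 CPM in *ubp12* (log2FC -0.11 ± 0.11, adjusted p = 0.50). *ACX1*, an acyl-CoA oxidase of the beta-oxidation steps, was higher by adjusted p with a log2FC of 0.73 ± 0.09, and *JAR1*, which joins jasmonate to isoleucine, with 0.39.

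In signalling, 4 of 13 genes tested rose, all of them JAZ repressors, whose genes are themselves switched on by jasmonate. *JAZ5* had 33.8, 26.2 and 54.0 CPM in *ubp12/13*, against 5.13, 1.87 and 6.07 CPM in *ubp12* (8.84-fold, log2FC 3.14 ± 0.39, adjusted p = 8.5e-04). *JAZ1* rose by 3.12-fold, *JAZ6* by 2.54-fold and *TIFY7* (JAZ9) by 2.44-fold. *MYC2*, the transcription factor at the head of the response, had 180, 224 and 150 CPM in *ubp12/13* and 126, 63.7 and 112 CPM in *ubp12*. These libraries did not overlap, and *MYC2* was higher by adjusted p (0.028) but below the fold minimum (log2FC 0.87 ± 0.24). The receptor gene *COI1* differed little, with 39.6, 42.3 and 37.8 CPM in *ubp12/13* and 32.5, 33.0 and 32.8 CPM in *ubp12* (log2FC 0.28 ± 0.08, adjusted p = 0.027). *JAZ3* and *JAZ7* did not pass the test in either direction.

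Response genes rose in 4 of 5 cases. *VSP1*, a storage protein of leaves that accumulates on wounding, had 46.3, 106 and 121 CPM in *ubp12/13*, against 19.9, 11.1 and 18.4 CPM in *ubp12* (5.53-fold, log2FC 2.47 ± 0.36). *VSP2* rose by 2.46-fold, *CORI3*, a cystine lyase, by 4.70-fold, and *ORA59*, the transcription factor of the branch shared with ethylene, by 2.18-fold. *JMT*, which makes methyl jasmonate, had under 1.2 CPM in all 6 libraries and did not pass the test. Of 3 enzymes of jasmonate breakdown, 2 were tested and neither passed. Without single libraries, between 15 and 19 members of the list were higher.

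**Figure D3:**
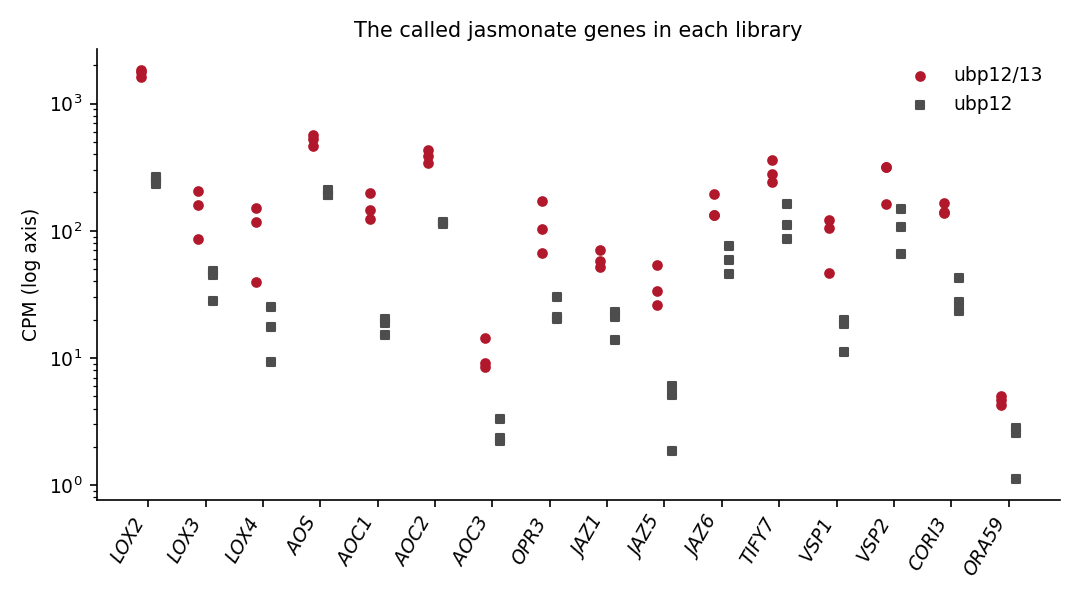
CPM (log axis) of the 16 jasmonate genes that rose, in the 3 *ubp12/13* libraries (red circles) and the 3 *ubp12* libraries (grey squares). In each gene, all *ubp12/13* libraries lie above all *ubp12* libraries, with *LOX2* at 1606 to 1846 CPM against 233 to 263 CPM.

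Antimicrobial peptides, which are known as targets of jasmonate and ethylene, were listed apart. Of 10 defensins, thionins and basic pathogenesis-related proteins, 5 were tested, 4 rose and 0 fell, against 4.10% and 3.02% of all genes tested. The summed level was 161.5, 144 and 147.3 CPM in *ubp12/13*, against 52.7, 52.4 and 47.7 CPM in *ubp12*. It was 117.1, 96.0 and 68.4 CPM in *ubp13* and 114.5, 115.4 and 93.2 CPM in wt, so every *ubp12* library lay below those of both. *THI2.2* had 116, 108 and 111 CPM in *ubp12/13*, against 45.5, 40.6 and 40.2 CPM in *ubp12* (log2FC 1.40 ± 0.08, adjusted p = 3.1e-05). *PR4*, a chitin-binding protein, had 22.3, 18.9 and 17.8 CPM in *ubp12/13* and 5.36, 7.93 and 5.47 CPM in *ubp12*. The defensin *PDF1.3* had 55 reads in *ubp12/13* and 2 in *ubp12*, and it missed the threshold without the first *ubp12* library (adjusted p = 0.0505) and in a fit of all 12 libraries (adjusted p = 0.20). The best known defensins of this branch, the *PDF1.2* genes, did not pass the filter on low counts.

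Abscisic acid, the hormone of drought and seed dormancy, gave a smaller and less even picture. Of 42 genes listed, 39 were tested, 8 rose and 0 fell, against 4.10% and 3.02% of all genes tested. The median log2FC was 0.49. The count depended on single libraries and was 5 without the second and 4 without the third *ubp12* library. Of the genes that rose, 6 encode dehydrins and other LEA proteins that protect drying cells. *RAB18* (AT5G66400) had 128, 167 and 218 CPM in *ubp12/13*, against 78.6, 38.7 and 75.2 CPM in *ubp12* (2.66-fold, log2FC 1.41 ± 0.27). *LTI65* had 7.40, 9.41 and 16.8 CPM in *ubp12/13*, against 1.56, 0.700 and 2.58 CPM in *ubp12* (7.16-fold, log2FC 2.84 ± 0.45). *LEA4-5* had 81 reads in *ubp12/13* and 2 in *ubp12*, and missed the threshold without any 1 of the *ubp12* libraries (adjusted p 0.054 to 0.075). The LEA genes of seeds, *EM1* and *EM6*, did not pass the filter.

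*ABI5*, the bZIP factor that drives LEA genes, rose to 2.57, 2.71 and 2.72 CPM in *ubp12/13*, against 1.12, 0.583 and 1.37 CPM in *ubp12* (2.64-fold, log2FC 1.40 ± 0.29, adjusted p = 0.0091). Receptor genes did not rise, and *PYR1* was lower by adjusted p, with 31.1, 29.9 and 37.2 CPM in *ubp12/13* against 62.4, 56.9 and 53.5 CPM in *ubp12* (log2FC -0.82 ± 0.11). *NCED3*, the rate-limiting enzyme of synthesis under stress, did not pass the test (log2FC 0.19, adjusted p = 0.70). The promoter of *ABI5* is shown because it holds 3 G-boxes, a site of bZIP factors such as ABI5 itself, here in capitals and starting 146, 100 and 89 bases before the gene start.
ABI5, chr2:15207637-15207886, minus strand: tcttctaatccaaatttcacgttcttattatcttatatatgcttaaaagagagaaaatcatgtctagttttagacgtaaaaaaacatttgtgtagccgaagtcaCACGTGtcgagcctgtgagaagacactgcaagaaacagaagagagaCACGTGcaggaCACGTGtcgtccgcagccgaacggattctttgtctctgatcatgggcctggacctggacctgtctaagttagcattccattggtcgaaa
Within the jasmonate list, 6 of 32 promoters held a G-box.

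Several other stress and pigment pathways rose in part, where over all genes tested 4.10% rose and 3.02% fell. Of 16 heat shock factors and chaperones, only 7 were tested and 4 rose, among them the cytosolic chaperones *HSP70* (AT3G12580), with 38.6, 53.8 and 29.9 CPM in *ubp12/13* against 9.38, 6.88 and 8.50 CPM in *ubp12*, and *HSP90.1*, with 18.8, 21.7 and 16.2 CPM in *ubp12/13* against 4.80, 4.20 and 6.23 CPM in *ubp12*. *HSFA2*, a heat shock factor, was under 1.2 CPM in all 6 libraries and missed the threshold without the first or second *ubp12* or the first *ubp12/13* library (adjusted p 0.065 to 0.13), with DESeq2 (0.090) and with counts thinned to the smallest library (0.060). The small heat shock proteins, the hallmark of heat itself, were mostly below the filter. Of 16 flavonoid and anthocyanin genes, 11 were tested and 6 rose, with no gene fallen. *PAP1* (AT1G56650), the MYB factor that switches on anthocyanin synthesis, had 5.43, 8.23 and 5.66 CPM in *ubp12/13*, against 1.23, 0.583 and 0.304 CPM in *ubp12* (8.60-fold, log2FC 3.10 ± 0.37). *GSTF12* (TT19), which carries anthocyanins to the vacuole, had 5.43, 8.82 and 5.74 CPM in *ubp12/13* and 1.23, 1.28 and 0.456 CPM in *ubp12*. *DFR*, the first enzyme of the anthocyanin branch, had 4.15, 19.5 and 5.66 CPM in *ubp12/13* against 0.781, 0.583 and 0.607 CPM in *ubp12*, the second *ubp12/13* library standing above the others here as in *LDOX* and *UF3GT*. *TT4* (chalcone synthase), the entry enzyme, rose by 2.35-fold, while *FLS1*, which leads to flavonols, did not pass the test (log2FC -0.27). *LDOX* missed the threshold without any 1 of the *ubp12* libraries (adjusted p 0.076 to 0.10) and *UF3GT* without the first or second (0.080 and 0.059), and the count was 4 to 6 with single libraries left out and 1 when only genes over 1 CPM in all libraries were tested.

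Of 16 senescence genes, 13 were tested, 4 rose and 1 fell, against 4.10% and 3.02% of all genes tested. *NAC6* (ORE1), a transcription factor that promotes leaf senescence, had 6.19, 5.94 and 7.93 CPM in *ubp12/13*, against 1.34, 2.21 and 1.82 CPM in *ubp12* (3.70-fold, log2FC 1.89 ± 0.23). *SAG29*, a sugar transporter, had 5.51, 11.7 and 6.72 CPM in *ubp12/13*, against 1.23, 0.700 and 2.43 CPM in *ubp12*. *NAP*, another senescence factor, moved the other way, with 5.43, 3.999 and 5.29 CPM in *ubp12/13* against 10.2, 10.4 and 14.1 CPM in *ubp12* (log2FC -1.24 ± 0.18). *SAG12*, the marker of advanced senescence, was not tested for lack of reads. Of the enzymes of chlorophyll breakdown, *PPH* (log2FC 0.38 ± 0.07) and *ACD1* (PAO) were higher by adjusted p alone, *ACD1* with 115, 122 and 116 CPM in *ubp12/13* and 80.0, 71.9 and 82.6 CPM in *ubp12* (log2FC 0.58 ± 0.08). *WRKY6* and *SAG21* also rose. *WRKY6* missed the threshold without the first or second *ubp12* or the first *ubp12/13* library (adjusted p 0.054 to 0.076). *SAG21* missed the adjusted p without the first or the third *ubp12* library (0.057 and 0.066) and the fold minimum without the third *ubp12/13* library (log2FC 0.92). The count of genes that rose was 2 without the first *ubp12* library.

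Photosynthesis genes were lower together. All 35 listed genes, of the light-harvesting antenna, the photosystems and Rubisco, were tested, and in all 35 every *ubp12/13* library lay below every *ubp12* library, against 21.5% of all genes tested. By adjusted p alone 34 were lower, against 13.5% of all genes tested. The steps were small, with a median log2FC of -0.62, and only *PSAN* reached the fold minimum. *PSAN*, a subunit of photosystem I, had 1382, 1204 and 1253 CPM in *ubp12/13*, against 2662, 2716 and 2391 CPM in *ubp12* (log2FC -1.02 ± 0.09). It was just short of the minimum without the second *ubp12* (-0.99) or the second *ubp12/13* library (-0.98). *LHCB6*, an antenna protein of photosystem II, had 3281, 2971 and 3173 CPM in *ubp12/13*, against 6193, 6164 and 5863 CPM in *ubp12* (log2FC -0.96 ± 0.07, adjusted p = 8.9e-05). Rubisco activase (*RCA*) was the exception by adjusted p, with 8453, 9002 and 8543 CPM in *ubp12/13* and 9805, 10080 and 9428 CPM in *ubp12* (log2FC -0.18 ± 0.07, adjusted p = 0.078). Together the 35 genes made up 152900, 144600 and 158600 CPM in *ubp12/13*, against 232600, 235400 and 243000 CPM in *ubp12*. CPM are shares of a library, and the part of these abundant genes in the shift of 0.16 between the scalings was not tested.

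**Figure D4:**
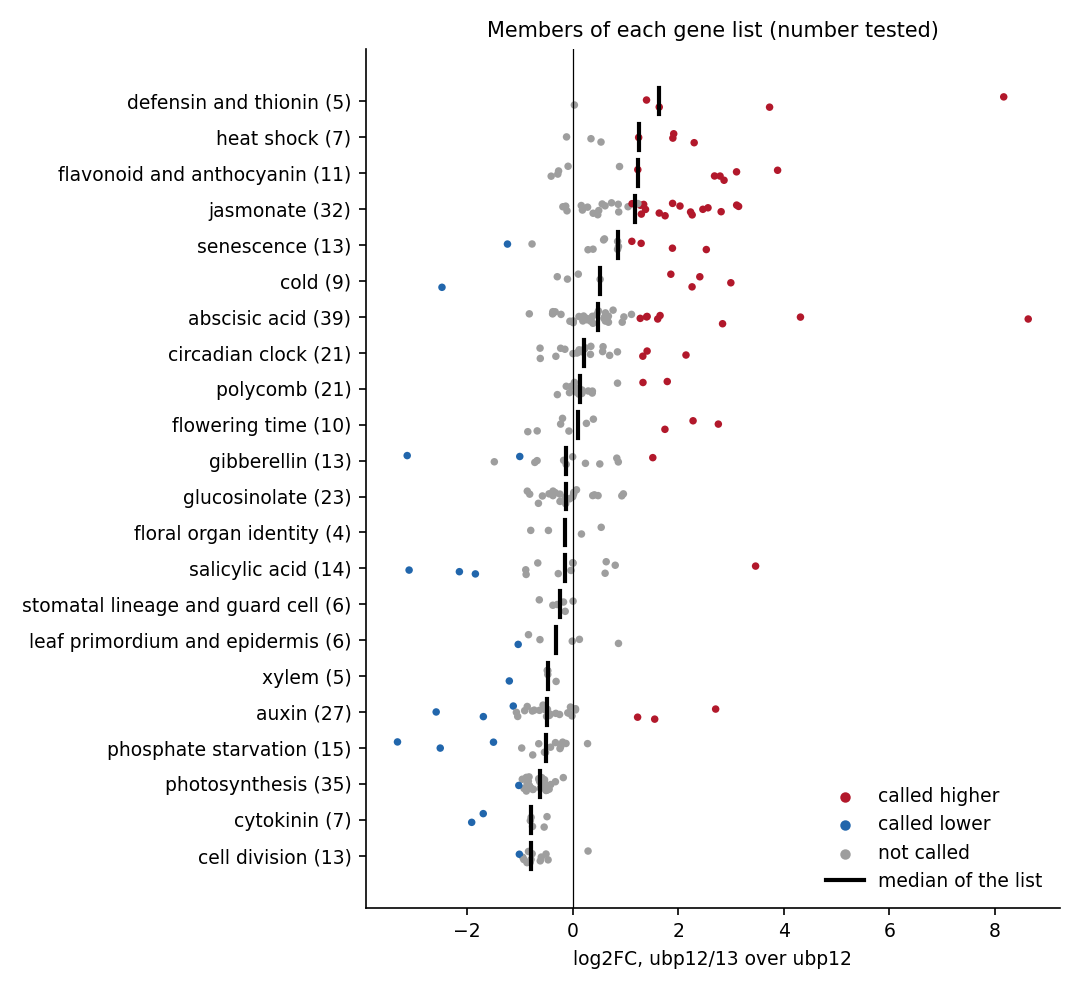
Log2FC of *ubp12/13* over *ubp12* for each tested member (points) of each gene list with at least 4 tested members, with the number tested in brackets and the median as a black bar, ordered by median. Red points rose, blue points fell and grey points did not pass. The lists run from a median of 1.64 (defensin and thionin) to -0.79 (cell division and cytokinin).

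Dividing tissue was measured by 14 genes of mitotic cyclins, kinases and cytokinesis, of which 13 were tested. Only *CYCB2;2* fell. By adjusted p alone 9 were lower and 0 higher, against 13.5% and 13.0% of all genes tested, and the median log2FC was -0.79. *SYP111* (KNOLLE), the syntaxin of the cell plate, had 11.2, 13.3 and 11.9 CPM in *ubp12/13*, against 20.2, 21.0 and 22.5 CPM in *ubp12* (log2FC -0.81 ± 0.10, adjusted p = 9.3e-04). *CYCB2;2* had 2.04, 1.41 and 2.12 CPM in *ubp12/13* and 3.12, 4.31 and 3.64 CPM in *ubp12*. It missed the threshold without the second *ubp12* or the second *ubp12/13* library (log2FC -0.88 and -0.83), and the count over the list ran between 0 and 3 with single libraries left out, 3 being without the first *ubp12* library. Markers of other tissues differed as well. Of 6 leaf primordium and epidermis markers tested, *AS1* was higher by adjusted p (log2FC 0.87 ± 0.10), *ATML1* was lower (-0.62) and *TRY*, a repressor of leaf hairs, fell (-1.03 ± 0.26), and of 6 stomatal markers 1, *KAT1*, was lower (-0.63). *TRY* missed a threshold without the first (adjusted p = 0.078) or the third *ubp12* (0.051) or the first (0.064) or the third *ubp12/13* library (log2FC -0.999), with DESeq2 (adjusted p = 0.062) and with library totals (log2FC -0.87). *XCP1*, a protease of xylem, fell to 3.77, 3.65 and 2.72 CPM in *ubp12/13*, against 8.04, 8.63 and 6.53 CPM in *ubp12*. By adjusted p, 3 of the 4 other xylem markers tested were lower, against 13.5% of all genes tested. *SUC2*, the sucrose transporter of phloem companion cells, had 143, 144 and 158 CPM in *ubp12/13* and 210, 203 and 240 CPM in *ubp12*. The part of these tissue differences in the other results was not tested.

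Of 7 type-A response regulators tested, which are switched on by cytokinin, 2 fell, against 3.02% of all genes tested. By adjusted p alone 5 were lower and none higher, against 13.5% and 13.0% of all genes tested, and the median log2FC was -0.79. *ARR4* had 34.9, 29.8 and 38.1 CPM in *ubp12/13*, against 53.5, 61.3 and 58.6 CPM in *ubp12* (log2FC -0.76 ± 0.11). *ARR6* (log2FC -1.92 ± 0.45) and *RR5* (-1.70 ± 0.38) fell further but had 1 low *ubp12* library each, the first, and missed the threshold without the second *ubp12* library (adjusted p = 0.061 and 0.053). *ARR6* also missed it without the third *ubp12* (0.054) or the first *ubp12/13* library (0.051). Among 13 gibberellin genes tested, 1 rose and 2 fell, against 4.10% and 3.02% of all genes tested. *GA3OX1*, the last enzyme of gibberellin synthesis, had 0.604, 0.294 and 1.13 CPM in *ubp12/13*, against 4.02, 6.53 and 6.99 CPM in *ubp12* (log2FC -3.14 ± 0.40, adjusted p = 0.0011). *GID1B*, a gibberellin receptor, moved the other way, with 13.1, 9.23 and 13.8 CPM in *ubp12/13* against 3.35, 4.31 and 5.01 CPM in *ubp12* (log2FC 1.52 ± 0.22). Of the growth-repressing DELLA genes, *RGL2* fell, just at the fold minimum (log2FC -1.004), and lost its call in 12 alternative runs. *GAI* was lower by adjusted p (log2FC -0.72 ± 0.09) and *RGA1* did not pass the test (-0.0018 ± 0.11, adjusted p = 0.99).

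Auxin genes moved in both directions, but more of them were lower. Of 27 tested, 3 rose and 3 fell, against 4.10% and 3.02% of all genes tested, and the median log2FC was -0.48. By adjusted p alone 3 were higher and 9 lower, against 13.0% and 13.5% of all genes tested. A log2FC above 0 was found in 5 of the 27. The repressor genes *IAA6*, *IAA19* and *IAA29*, which auxin switches on, fell, *IAA29* having 3.25, 5.64 and 3.55 CPM in *ubp12/13* against 12.5, 14.3 and 14.0 CPM in *ubp12* (log2FC -1.69 ± 0.20). *WES1* (GH3.5), which conjugates auxin to amino acids, rose to 70.5, 73.3 and 74.3 CPM in *ubp12/13*, against 21.9, 23.7 and 28.9 CPM in *ubp12* (log2FC 1.55 ± 0.11, adjusted p = 5.8e-05). *GH3.3*, of the same enzyme family, rose but missed the threshold without the first or the third *ubp12* library (adjusted p = 0.072 and 0.057). *YUC9*, an enzyme of auxin synthesis, rose but missed it without any 1 of the *ubp12* libraries or the first or the third *ubp12/13* library (adjusted p 0.057 to 0.11). *PIN4* and *PIN7*, efflux carriers, were lower by adjusted p (log2FC -0.73 and -0.52), while *PIN3* was not.

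The salicylic acid branch is known to oppose jasmonate. Among its 14 genes tested, 1 rose and 3 fell, against 4.10% and 3.02% of all genes tested. *WRKY70*, a transcription factor that favours salicylic acid over jasmonate responses, had 44.0, 42.9 and 28.9 CPM in *ubp12/13*, against 173, 150 and 189 CPM in *ubp12* (log2FC -2.15 ± 0.16, adjusted p = 9.3e-05). Its partner *WRKY54* had 0.981, 1.29 and 2.04 CPM in *ubp12/13*, against 11.2, 11.7 and 14.3 CPM in *ubp12* (log2FC -3.10 ± 0.23). *PCC1*, a small membrane protein under control of pathogens and the clock, had 1.13, 1.29 and 10.8 CPM in *ubp12/13*, against 54.1, 91.1 and 120 CPM in *ubp12* (log2FC -4.37 ± 0.67). Its neighbours AT3G22235 and AT3G22240, of the same small family, fell with it and were likewise highest among *ubp12/13* in the third library (1.89, 1.35 and 14.6 CPM in *ubp12/13* against 70.9, 104 and 134 CPM in *ubp12* for AT3G22235). *EDS16* (ICS1), the enzyme of synthesis, and *NPR1*, the receptor, did not pass the test (log2FC -0.03 ± 0.17 and -0.00041 ± 0.096). *SARD1*, a factor above *EDS16*, fell but missed the threshold without either of the second and the third *ubp12* or of the first and second *ubp12/13* libraries (adjusted p 0.056 to 0.087) and in a fit of all 12 libraries (0.095). *BGL2* (PR2) is the member that rose, at 84 reads in *ubp12/13* against 4 in *ubp12*. It missed the threshold without any 1 of the *ubp12* libraries (adjusted p 0.062 to 0.069) and in a fit of all 12 libraries (0.37). *PR1* was below the filter and *PR5* did not pass.

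Other large decreases were in single genes of different roles. *DCF*, the enzyme that puts ferulate on cutin, had 2.04, 1.71 and 1.89 CPM in *ubp12/13*, against 20.6, 22.4 and 18.1 CPM in *ubp12* (log2FC -3.45 ± 0.14, adjusted p = 5.7e-06). AT3G16670, of the pollen Ole e 1 and extensin family, had 0.151, 0.529 and 0.302 CPM in *ubp12/13*, against 5.36, 20.2 and 10.5 CPM in *ubp12*. The uncharacterised AT1G67865 had the smallest p of the genes that fell, with 4.91, 5.29 and 6.19 CPM in *ubp12/13* against 98.0, 79.6 and 107 CPM in *ubp12* (log2FC -4.12 ± 0.14, adjusted p = 3.2e-06). *TPS03*, a terpene synthase, had 2.57, 2.71 and 1.81 CPM in *ubp12/13* and 50.1, 24.2 and 32.2 CPM in *ubp12*. In wt, *TPS03* had 3.04, 9.25 and 4.39 CPM, below every *ubp12* library. *ABCA10*, a membrane transporter, had 1 read in *ubp12/13* and 32 in *ubp12*, a ratio of 57.7 with a 95% counting interval of 9.64 to 2349. The others of the 8 largest decreases, *MEE3*, AT5G03545, AT1G23110, AT1G58460 and *CYP71B22*, had under 0.6 CPM in every *ubp12/13* library.

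AT5G03545, annotated as expressed in response to phosphate starvation, had 0.0755, 0.176 and 0.529 CPM in *ubp12/13*, against 9.82, 5.71 and 4.25 CPM in *ubp12* (log2FC -4.67 ± 0.51, adjusted p = 5.1e-04). Of 21 genes of the phosphate starvation response, 15 were tested, 0 rose and 3 fell, against 4.10% and 3.02% of all genes tested. By adjusted p alone 8 were lower, against 13.5% of all genes tested. The 3 that fell replace phospholipids or free phosphate: *MGDC*, which makes galactolipids, *PLDP2*, a phospholipase D, and *PS2* (AT1G73010), a phosphatase. *PLDP2* had 1.74, 1.35 and 1.81 CPM in *ubp12/13*, against 6.81, 3.27 and 3.49 CPM in *ubp12* (log2FC -1.50 ± 0.32, adjusted p = 0.011). In all of these the first *ubp12* library was the highest, and without it *MGDC* (adjusted p = 0.062) and *PS2* (0.22) missed the threshold, which left a count of 1, against 4 without the second *ubp12* library. *PS2* also missed it without the first (0.13) or second *ubp12/13* library (0.083). The regulators *PHR1* and *PHO2* did not pass the test. The promoters of 2 of the genes that fell are shown because they hold the P1BS motif, GNATATNC, at which the phosphate regulator PHR1 binds, in capitals.
AT5G03545, chr5:894332-894581, plus strand: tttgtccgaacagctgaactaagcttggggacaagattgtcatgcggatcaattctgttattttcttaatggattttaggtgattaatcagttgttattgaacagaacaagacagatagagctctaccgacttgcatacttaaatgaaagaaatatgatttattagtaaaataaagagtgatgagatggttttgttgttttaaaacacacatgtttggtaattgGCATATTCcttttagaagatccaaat
PLDP2, chr3:1634944-1635193, plus strand: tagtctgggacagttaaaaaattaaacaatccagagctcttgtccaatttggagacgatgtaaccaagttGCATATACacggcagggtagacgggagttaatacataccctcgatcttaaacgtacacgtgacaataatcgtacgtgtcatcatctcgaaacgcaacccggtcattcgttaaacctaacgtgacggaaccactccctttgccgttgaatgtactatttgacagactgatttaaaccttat
The motif starts 26 bases before the start of AT5G03545 and 180 before that of *PLDP2*. It was found in 4 of the 15 promoters of the list, in 7.56% of genes that fell, 5.91% of genes that rose and 5.42% of all genes tested.

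Of 24 Polycomb subunits, recruiters and demethylases, 21 were tested, 2 rose and 0 fell, against 4.10% and 3.02% of all genes tested, and the median log2FC was 0.14. *RING1B*, a subunit of PRC1 that attaches H2Aub1, had 8.30, 7.76 and 9.21 CPM in *ubp12/13*, against 3.46, 2.92 and 3.64 CPM in *ubp12* (log2FC 1.33 ± 0.16, adjusted p = 7.1e-04). *JMJD5* (JMJ30), a histone demethylase that also acts in the clock, had 5.06, 7.23 and 6.19 CPM in *ubp12/13*, against 1.12, 3.03 and 1.06 CPM in *ubp12* (log2FC 1.79 ± 0.34). The PRC2 enzyme genes *CLF* (log2FC -0.29, approximate 95% interval -0.61 to 0.03) and *SWN* (0.17) did not pass. Neither did *EMF1* (0.05, -0.12 to 0.23) or *REF6* (0.15), which removes H3K27me3.

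Of 7 flowering repressors tested, 3 rose, against 4.10% of all genes tested. *FLC*, the central repressor of flowering (chromosome 5, 3173382 to 3179448, minus strand), had 9.51, 7.53 and 7.70 CPM in *ubp12/13*, against 0.781, 1.75 and 1.06 CPM in *ubp12* (6.77-fold, log2FC 2.76 ± 0.26, adjusted p = 2.4e-04). Reads of *FLC* and of its antisense RNA cannot be told apart, as the library kit does not keep strand. Its relatives *MAF4*, with 4.53, 6.47 and 7.10 CPM in *ubp12/13* against 1.12, 2.45 and 1.82 CPM in *ubp12*, and *MAF5*, with 9.44, 8.82 and 8.38 CPM in *ubp12/13* against 2.01, 2.21 and 1.06 CPM in *ubp12*, rose too. *SVP*, *AGL31* (MAF2) and *MAF3* did not pass the test. *AGL20* (SOC1), a promoter of flowering that FLC represses, had 58.7, 59.8 and 69.5 CPM in *ubp12/13*, against 123, 96.1 and 119 CPM in *ubp12* (log2FC -0.85 ± 0.11, adjusted p = 0.0013), short of the fold minimum. *FT* and *CO* did not pass the filter. Most genes of other classes that Polycomb silences in leaves did not pass the filter. Of 13 floral organ identity genes 4 were tested and none passed (0 higher and 0 lower in edgeR and in DESeq2, and 1 each at an unadjusted p under 0.05 in edgeR), of 5 meristem homeobox genes 2 were tested and neither passed, and of 15 seed maturation genes only *DOG1* was tested (log2FC 0.63 ± 0.13, adjusted p = 0.0075).

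The clock genes that rose were those of the afternoon and evening. Of 21 clock genes, all tested, 3 rose and 0 fell, against 4.10% and 3.02% of all genes tested. *TOC1*, the evening repressor, had 116, 83.0 and 129 CPM in *ubp12/13*, against 38.0, 45.8 and 46.6 CPM in *ubp12* (2.51-fold, log2FC 1.33 ± 0.17, adjusted p = 9.4e-04). *PRR3*, which stabilises TOC1 protein, had 25.1, 24.9 and 19.1 CPM in *ubp12/13*, against 3.57, 7.00 and 5.01 CPM in *ubp12* (log2FC 2.15 ± 0.21). *ELF4*, of the evening complex, had 15.2, 13.5 and 14.1 CPM in *ubp12/13* and 4.91, 6.30 and 4.71 CPM in *ubp12*. Its partners *ELF3* (log2FC 0.70 ± 0.08) and *PCL1* (LUX, 0.57) were higher by adjusted p alone. The morning genes *CCA1* (log2FC 0.10 ± 0.18) and *LHY* (0.57, adjusted p = 0.33) did not pass, and *PRR7* was slightly lower (-0.32 ± 0.07, adjusted p = 0.012). All libraries come from a single 2-hour window of the day, so that a level and a phase cannot be told apart.

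Of 9 cold genes, 4 rose and 1 fell, against 4.10% and 3.02% of all genes tested. *COR27*, a cold gene that feeds into the clock, had 11.7, 9.41 and 9.89 CPM in *ubp12/13*, against 0.447, 2.80 and 0.456 CPM in *ubp12* (7.98-fold, log2FC 2.996 ± 0.44). Its paralog AT4G33980 had 21.3, 20.9 and 17.6 CPM in *ubp12/13* and 1.67, 7.46 and 3.19 CPM in *ubp12*. *CBF1* (3.63-fold) and *RHL41* (ZAT12, 5.31-fold) rose, while *CBF2* (log2FC -0.10, adjusted p = 0.90), *DREB1A* (CBF3) and *ICE1* did not pass and *GolS3* fell (-2.48 ± 0.40). The promoter of *TOC1* is shown because it holds the evening element, AAAATATCT, at which morning clock factors bind, in capitals on either strand.
TOC1, chr5:24674713-24674962, plus strand: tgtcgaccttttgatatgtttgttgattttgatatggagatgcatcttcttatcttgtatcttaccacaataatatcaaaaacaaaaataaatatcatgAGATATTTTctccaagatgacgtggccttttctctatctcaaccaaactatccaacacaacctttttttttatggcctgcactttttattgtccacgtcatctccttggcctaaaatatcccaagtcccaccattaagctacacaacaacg
The element starts 151 bases before the start of *TOC1*. It was found in 4.50% of the promoters of genes that rose, 2.52% of those that fell and 2.62% of all genes tested.

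The remaining motifs searched in the same window on both strands gave other shares. The W-box of WRKY factors, TTGACC or TTGACT, was found in 35.7% of promoters of genes that rose, 27.7% of genes that fell and 27.6% of all genes tested. The DRE core CCGAC of the CBF factors stood at 13.6%, 12.2% and 13.2% in the same order. The TCP site II motif, TGGGCC or TGGGCT, was found in 15.0% of genes that rose, 11.6% of genes that fell and 23.6% of all, and the telobox AAACCCTA in 1.69%, 2.13% and 3.57%. The motif of the demethylase REF6 (CTCTGCTC, CTCTGCTT, CTCTGTTC or CTCTGTTT) was found in 3.66%, 5.43% and 5.19%. Matches of different motifs were counted separately and may overlap.

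The root meristem list holds the receptors of root growth factor peptides that UBP12 and UBP13 are known to protect, and the PLETHORA genes below them. Only AT4G26540 (RGFR1) was tested, and its RNA fell to 14.0, 15.2 and 10.7 CPM in *ubp12/13*, against 35.9, 29.9 and 31.4 CPM in *ubp12* (log2FC -1.29 ± 0.14, adjusted p = 4.8e-04). *PLT1* and *PLT2* had no read in any of the 6 libraries, and of the root markers *CASP1* rose, at 68 reads in *ubp12/13* against 5 in *ubp12*. Of 23 tested glucosinolate genes, whose products myrosinases split, 0 rose and 0 fell, and the median log2FC was -0.14. By adjusted p alone 2 were higher and 3 lower, where 13.0% and 13.5% of all genes tested were. At an unadjusted p under 0.05 in edgeR, 5 members were higher and 6 lower, and DESeq2 also called 0 in each direction. *CYP79B2*, an enzyme of the indole branch, was among those higher by adjusted p, with 30.1, 29.1 and 36.2 CPM in *ubp12/13* against 13.7, 12.6 and 23.2 CPM in *ubp12* (log2FC 0.96 ± 0.21).

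The effect of *ubp13-3* depended on the background. In *ubp13* against wt, 5 of 17615 genes passed both thresholds, *UBP13* among them. The 565 genes that rose in *ubp12/13* over *ubp12* and could be tested there had a median log2FC of -0.15 in *ubp13* over wt (quartiles -0.38 and 0.11), and the 528 that fell had 0.05 (-0.15 and 0.27). Of each set 1 gene was called in the same direction in *ubp13* against wt. AT5G35935, a pseudogene, had 5.21, 7.70 and 6.34 CPM in *ubp12/13* against 0.112, 0.350 and 0.304 CPM in *ubp12*, and 10.6, 10.5 and 12.9 CPM in *ubp13* against 0.109, 0 and 0.157 CPM in wt. The noncoding AT2G05995 (adjusted p = 0.0495) had 0.755, 0.764 and 0.604 CPM in *ubp12/13* against 1.90, 1.05 and 1.37 CPM in *ubp12*, and 1.88, 2.77 and 1.83 CPM in *ubp13* against 9.34, 8.63 and 7.83 CPM in wt. The difference between the backgrounds was tested gene by gene over all 12 libraries. The log2FC of *ubp13-3* was larger in the *ubp12* background for 589 of 18212 genes (3.23%) and smaller for 571 (3.14%). With library totals in place of TMM the effect was larger for 960 genes and smaller for 381. The difference passed in the same direction for 453 of the 733 genes that rose (61.8%) and 389 of the 540 that fell (72.0%). These calls share the *ubp12/13* and *ubp12* libraries with the difference, so the 2 counts are not independent.

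The same was measured for named genes. For *MBP1* the *ubp13* libraries had 6.90, 7.06 and 10.5 CPM against 11.5, 9.63 and 8.62 CPM in wt, and the difference between the backgrounds was 5.27 ± 0.22 on the log2 scale (adjusted p = 3.1e-08). *BGLU18* had 121, 110 and 158 CPM in *ubp13* against 131, 127 and 114 CPM in wt (difference 4.08 ± 0.19). *LOX2* had 116, 87.8 and 228 CPM in *ubp13* against 243, 111 and 112 CPM in wt (difference 2.93 ± 0.46, adjusted p = 0.0010). In the jasmonate list, the difference passed both thresholds for 15 of the 32 genes. *FLC* did not pass it, with 1.02, 1.68 and 1.73 CPM in *ubp13* against 0.217, 0.5001 and 0.470 CPM in wt (difference 0.86 ± 0.61, adjusted p = 0.39).

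**Figure D5:**
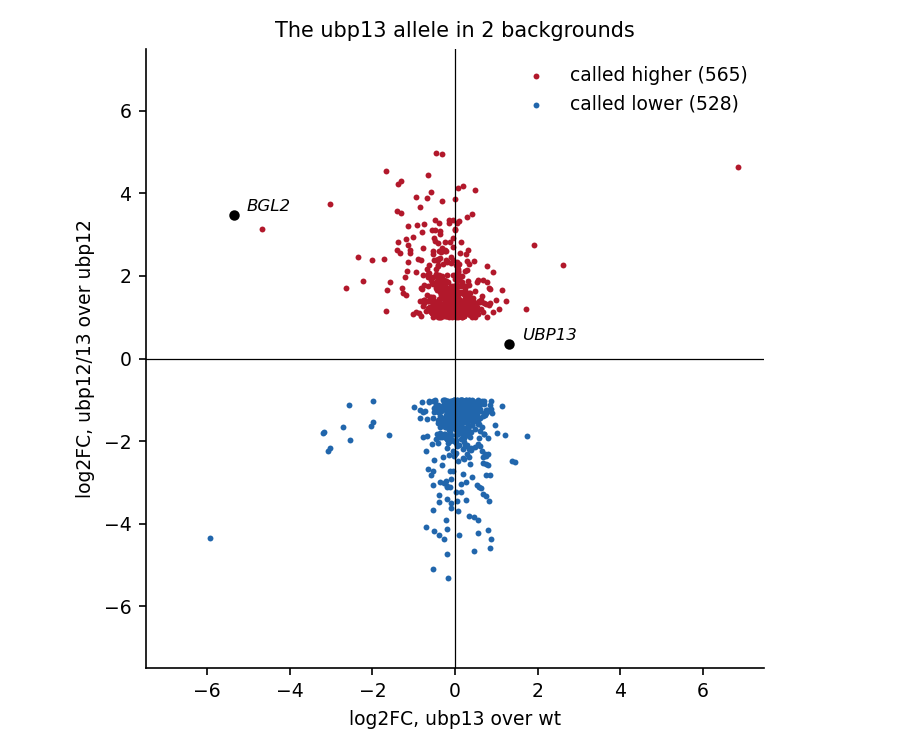
Log2FC of *ubp12/13* over *ubp12* (vertical) against log2FC of *ubp13* over wt (horizontal) for the genes that rose (red, 565 tested in both) or fell (blue, 528) in *ubp12/13* against *ubp12*, with *UBP13* and *BGL2* in black. The points stand along the vertical axis, with medians of -0.15 and 0.05 in *ubp13* over wt.

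H2Aub1 itself was measured by the study in rosette leaves of *ubp12/13* and wt, an experiment that shares no library with the RNA. Of 933 protein-coding genes with a peak of increased H2Aub1 in their first 1 kb, 330 had enough reads to be tested (35.4%). The share tested was 66.6% for protein-coding genes without such a peak. Among the 330, 59 rose (17.9%) and 26 fell (7.88%), against 652 (3.80%) and 490 (2.85%) of 17170 genes tested without such a peak. The median log2FC was 0.08. A gene can pass the filter through the genotype in which it is high, so the same shares were taken over genes above 1 CPM in every library, where 34 of 242 genes with a peak rose (14.0%) and 18 fell (7.44%), against 432 (2.73%) and 328 (2.07%) of 15821 without. These shares are descriptions with no test. The organs differ between the experiments. According to the methods, the ChIP-seq plants were also older, had been moved to soil and were harvested at another time of day. The peaks compare *ubp12/13* with wt, not with *ubp12*. Genes of the text with such a peak were found in both directions. *CSLA01*, AT1G21520, *VSP1*, *CBF1*, *NAC6*, *GH3.3* and *LEA4-5* rose, and *DCF*, *TPS03*, *CYP71B22* and AT3G16670 fell. *FLC*, *MBP1*, *BGLU18* and *LOX2* had none.

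Calls were spread over the genome. Between 6.89% and 7.42% of the genes tested on each chromosome were called in either direction. Within 2 Mb of *UBP13*, where DNA linked to the insertion cannot be told apart from the mutation, 31 genes rose and 19 fell of 870 tested (5.75%). The largest differences there were in AT3G16670, *UGT76B1*, a glucosyltransferase that acts on salicylic acid and isoleucic acid, with 64 reads in *ubp12/13* and 2 in *ubp12*, and *ASPGB1*, an asparaginase, with 0.528, 0.941 and 0.529 CPM in *ubp12/13* against 4.13, 9.91 and 6.53 CPM in *ubp12*.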

How the data were processed

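RNA of whole seedlings was sequenced from 3 libraries each of *ubp12/13*, *ubp12*, *ubp13* and wt. According to the study's methods and the submitters' processing notes, single-end reads were trimmed with cutadapt 1.18, aligned to TAIR10 with TopHat2, filtered and counted per gene with HTSeq 0.11.1 from a kit that keeps no strand. The authors deposited raw counts per gene for each library. They also deposited merged H2Aub1 peaks higher in *ubp12/13* than in wt in both ChIP-seq replicates, with a deposited score of 1 for every peak, which ranks none.

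Nuclear genes with a CPM over 1 in at least 2 libraries of the comparison were scaled by TMM and tested with edgeR 4.0.16 (R 4.3.3), by the quasi-likelihood test on *ubp12/13* and *ubp12* alone, with Benjamini-Hochberg adjustment. The difference between backgrounds was a contrast over all 12 libraries. Calls needed an adjusted p under 0.05 and a log2FC of at least 1 in size. Printed CPM use TMM over 12 libraries, fold changes use the fit. The script was tested on simulated data with 200 changed genes. Intervals of ratios of reads are exact at 95% and cover counting error only. The SE of a log2FC was derived from the F value of its test. Intervals of a log2FC span 1.96 SE on each side, which is approximate and too narrow for so few libraries.

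Genes were named by rule: *UBP12* and *UBP13*, the 8 largest log2FC in each direction among calls whose libraries do not overlap, the same 8 at 20 CPM or more, the 3 smallest p, up to 4 called members and the best known members of each of 27 lists (453 entries), and the 3 largest differences between backgrounds and within 2 Mb of *UBP13*. *TSA1*, *FRO6*, *AOC2*, *AOC3*, AT5G35935 and AT2G05995 were named after their values were seen. The members, lists and tests were chosen with earlier results of these data known. Alternatives were DESeq2 1.42.0, other scalings and filters, thinned counts, a fit of all 12 libraries, a replicate block and each library left out. Promoters were read from the TAIR10.1 genome of RefSeq, whose nuclear chromosome lengths match those of TAIR10.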

Additional observations from a re-analysis of the deposited data

Results flagged for a closer look

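The effect of *ubp13-3* differed between the backgrounds by a test of the difference itself, which was larger in the *ubp12* than in the wt background for 589 genes and smaller for 571 at an adjusted p under 0.05 and a difference of at least 1 on the log2 scale (edgeR). The largest differences in each direction and that of *UBP13* are given here. *BGL2* had a difference of 8.79 ± 2.75 (SE, adjusted p = 0.047), with 0.755, 1.65 and 3.47 CPM in *ubp12/13* against 0.223, 0.233 and 0 CPM in *ubp12*, and 0.938, 0.168 and 1.02 CPM in *ubp13* against 79.2, 2.38 and 0.470 CPM in wt. A single wt library, the first, held nearly all wt reads of this gene. AT5G57010 had a difference of 7.96 ± 2.17 (adjusted p = 0.031) and *bHLH39* of 7.93 ± 2.26 (adjusted p = 0.032). Both had at least 1 library without reads in *ubp12*, in *ubp13* and in wt, so that the sizes depend on the prior count of the fit and are no bounds.

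*UBP13* had a difference of -0.97 ± 0.11 (adjusted p = 1.2e-04), with its reads higher in both genotypes that carry *ubp13-3*. AT5G03545 had -5.11 ± 0.63 (adjusted p = 2.0e-04), with 3.67, 6.64 and 6.71 CPM in *ubp13* against 4.46, 3.0 and 5.01 CPM in wt. *PCC1* had -5.22 ± 1.37 (adjusted p = 0.021), with 84.0, 8.57 and 222 CPM in *ubp13* against 115, 22.6 and 33.5 CPM in wt, a wide spread within both genotypes. AT1G23110 had -5.40 ± 0.86 (adjusted p = 0.0011), with 1.53, 2.61 and 2.34 CPM in *ubp13* against 0.869, 0.875 and 2.04 CPM in wt.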

How the results depend on the processing

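No call of a named gene reversed under any alternative run. The balance of directions was less stable. More genes were higher than lower in the main run (733 and 540), but not without the fold minimum. Larger effects outnumbered smaller ones in the main run (589 and 571) and with DESeq2 (601 and 560). This order reversed in other runs, such as that without the second *ubp12* library (495 and 533). Of the values that could be recomputed for named genes, 1398 stayed as they were and 90 lost their call. Genes that a run did not test are in neither count. With only genes over 1 CPM in all libraries, 57 named genes were tested, against 97 with RLE scaling. *UBP12* and *UBP13*, which had no call to lose, are among the 1398. Of the counts over lists, 796 stayed within 1.5 times and 68 moved. Testing only genes over 1 CPM in all libraries gave 474 higher genes. No fold minimum gave 2332 higher and 2418 lower genes, and for the difference between backgrounds 1243 larger and 1378 smaller effects. Library totals gave 960 larger and 381 smaller effects, and ended the calls of *PSAN*, *CYCB2;2*, *IAA19*, *TRY* and *RGL2*. Counts thinned to the smallest library ended those of *PS2*, *HSFA2* and *RGL2*. The median log2FC of genes with an H2Aub1 peak was 0.14 with peaks of at least 1000 bp, 0.12 with at least 500 bp shared and, in an alternative chosen after seeing the data, 0.25 with library totals. With single libraries left out it ran from 0.070 to 0.17, the count of higher genes from 594 (without the second *ubp12* library) to 804 and that of lower genes from 459 to 569. Larger effects ran from 491 to 609 and smaller ones from 476 to 606. DESeq2 called 697 higher and 490 lower genes, and the fit without the third library of both genotypes 621 and 488, with the calls of *HAI1*, *SARD1*, *SAG21*, *YUC9*, *GH3.3*, *LDOX*, *RR5*, *RGL2* and *TRY* lost. *UBP12*, with an adjusted p of 0.094, reached 0.039 in the fit of all 12 libraries. For *UBP13* the highest adjusted p was 0.0506 over all alternative runs and 0.0395 with single libraries left out. Same-numbered libraries of the genotypes deviated together with correlations of 0.049, 0.15 and 0.31 over 17890 genes, and the first *ubp12* library correlated best with the second *ubp12/13* library (0.11), so the numbers were not taken as pairs. A replicate block gave 801 higher and 562 lower genes. The lower depth of *ubp12* limits genes of a few counts there.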

Other observations

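There were 20 runs of at least 3 annotated neighbours called in the same direction, and how many such runs gene order alone gives was not tested. A run of 5 genes on chromosome 3, 10520443 to 10567634, held *PMZ*, AT3G28220, AT3G28270 and both copies of *AT14A*, with log2FC between 3.80 and 4.17. AT3G28220, of the TRAF-like family, had 939, 1033 and 1262 CPM in *ubp12/13* against 80.1, 57.8 and 83.1 CPM in *ubp12*. *MBP1* lay in a run with *MBP2* and the lectin gene AT1G52000, which had 674, 664 and 782 CPM in *ubp12/13* against 77.9, 53.4 and 86.2 CPM in *ubp12*. *EARLI1* lay in a run with *AZI1*, AT4G12490 and AT4G12500, and *GSTU1*, *GSTU2* and *GSTU4* in another, next to the small heat shock gene AT2G29500. The nitrilase genes *NIT1*, *NIT2* and *NIT3*, known for converting indole-3-acetonitrile to auxin, rose together by small steps (log2FC 1.04 to 1.34). Reads that match several members of 1 family can be lost to the study's filter on mapping quality.

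Of the runs that fell, 1 held the copies of ribosomal RNA genes at the end of chromosome 2 (3706 to 38652, log2FC -2.18 to -1.48). These repeats are uncertain, as reads of other copies can fall on them. Another held *UNE15*, *HTA4*, AT4G13572 and AT4G13575 on chromosome 4 (7879558 to 7893761, log2FC -4.08 to -2.83). The genes of these paragraphs other than those named in the results were chosen after their values were seen.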
